A study of Homo sapiens with 6 samples.

Results

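The genes described here are 34 genes whose products cut and polyadenylate the 3′ ends of mRNAs, end transcription by RNA polymerase II, or belong to the Integrator complex. They were listed by gene symbol, with earlier results of these data known, and each of the 34 was found among the 74852 loci of the expression table. RNA-seq of polyadenylated RNA was carried out in MDA-MB-231, an established human cell line of triple-negative breast cancer, to learn how depletion of the RNA-binding protein Sam68 changes its transcripts. Cells of the si-CTRL group (3 libraries) received a pool of 4 non-targeting siRNAs and cells of the si-SAM68 group (3 libraries) a pool of 4 siRNAs against KHDRBS1, the gene that encodes Sam68. Both groups were transfected in 2 rounds and, by the sample labels, harvested 24 h after the second, whereas the methods of the study give another harvest interval, another medium and another RNA kit. All libraries come from 1 cell line under transient silencing with a single pool, and the methods give a harvest in triplicate without saying whether from separate cultures, so p-values measure only the spread between these samples, which may be technical.

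The 3′ end of most mRNAs is made by a multi-protein machine. CPSF recognizes the poly(A) signal and holds the endonuclease that cuts the RNA, CFIm binds UGUA elements upstream, CstF binds U- or GU-rich elements downstream, CFIIm links cleavage to the end of transcription, and poly(A) polymerases with the nuclear poly(A)-binding protein add the tail. XRN2 then degrades the RNA still attached to the polymerase, while Integrator, a separate complex with its own endonuclease, processes small nuclear RNAs and terminates unproductive transcription. The supply of these factors is known to influence which of several polyadenylation sites, and so which terminal exon, a gene uses.

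The siRNAs against KHDRBS1 are shown because a guide strand can also pair through its seed (guide bases 2 to 8) with other mRNAs, the members included. The sense strands are given 5′ to 3′, with the 7 bases opposite the seed (bases 12 to 18 of 19) in capitals. All 4 match the coding sequence of KHDRBS1 on the plus strand of chromosome 1 in GRCh38, at 32042603 to 32042621, 32030383 to 32030401, 32036912 to 32036930 and 32031595 to 32031613, in the order listed.
siSAM68_1: gcacccauaugGACGUUAu
siSAM68_2: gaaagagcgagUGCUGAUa
siSAM68_3: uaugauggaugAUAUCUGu
siSAM68_4: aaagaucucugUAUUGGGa

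Values are normalized read counts, that is, reads on a locus divided by the size factor of the library. The libraries held 52625492 to 82568487 reads. KHDRBS1 stood at 15660, 14483 and 14737 in si-CTRL replicates 1 to 3 and at 583, 602 and 670 in si-SAM68 replicates 1 to 3, a log2 fold change of −4.60 (limma, adjusted p = 2.13e-09). The mesenchymal markers VIM and CD44 and the keratins KRT8 and KRT18 were abundant, while PGR was at 0 in every library and ESR1, CDH1 and EPCAM did not exceed 15.2. ERBB2, a receptor that defines another breast cancer class, was read at 2455 to 3447 in si-CTRL. Markers of blood and endothelial cells (PTPRC, CD3E, PECAM1 and CDH5) did not exceed 42.5. In si-SAM68 replicate 2 the ribosomal RNA locus took 15.1% of reads, against 1.83% to 3.17% in the other libraries, and 61 histone loci, most of whose mRNAs lack a poly(A) tail, stood at a median of 1.72 above their mean on the log2 scale, against −0.52 to −0.12 in the others. The members' median deviation in that library was 0.0073, within the range of −0.056 to 0.064 of the other libraries.

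Of the 34 members 3 were called different between si-SAM68 and si-CTRL cells, a share close to that of all loci tested. The largest difference was a rise of 30.3%. A single member, INTS8, rose and 2 members, XRN2 and the locus of PABPN1, fell at an adjusted p under 0.05 (limma on log2(normalized read count + 1), Benjamini-Hochberg over the 18849 loci whose mean reached 10). That was 8.82% of the members, beside 10.7% of all loci tested (4.47% higher, 6.23% lower) and 13.1% of the 9444 loci read at least as strongly as the lowest member (6.17% higher, 6.95% lower). This fit did not pair the libraries. With the replicate number as a block INTS8 alone was called, and XRN2 and the PABPN1 locus were not (limma adjusted p of 0.056 and 0.0725). With bulk RNA scaled by the size factor of each library, a change in the number of cells of a state and a change in RNA per cell cannot be told apart.

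The members' log2 fold changes spanned −0.29 to 0.38 with a median of 0.010, beside a median of 0.005 for all loci tested, and 18 were above 0 and 16 below. Their median size without sign was 0.084, beside 0.193 over all loci, many of which are read at lower levels (the median of the members' means was 3490, that of all loci 610). At the thresholds of the study (an unadjusted p no greater than 0.05 together with a change of 1.5-fold or more) the count of members was 0 with limma, edgeR and DESeq2, beside 7.67% of all loci with limma (2.83% higher, 4.83% lower), and 9 members (26.5%) had an unadjusted p under 0.05 in limma, beside 27.0% of all loci. The 95% interval of the fold change lay within 1.5-fold for 33 members and reached 1.5-fold for 1, INTS8. Values of the groups did not overlap for 12 members, 6 higher and 6 lower in si-SAM68, which is 35.3% beside 33.9% of all loci (16.6% higher, 17.3% lower). Every member was well covered, the fewest reads being 380 for CLP1 in a single library.

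**Figure D1:**
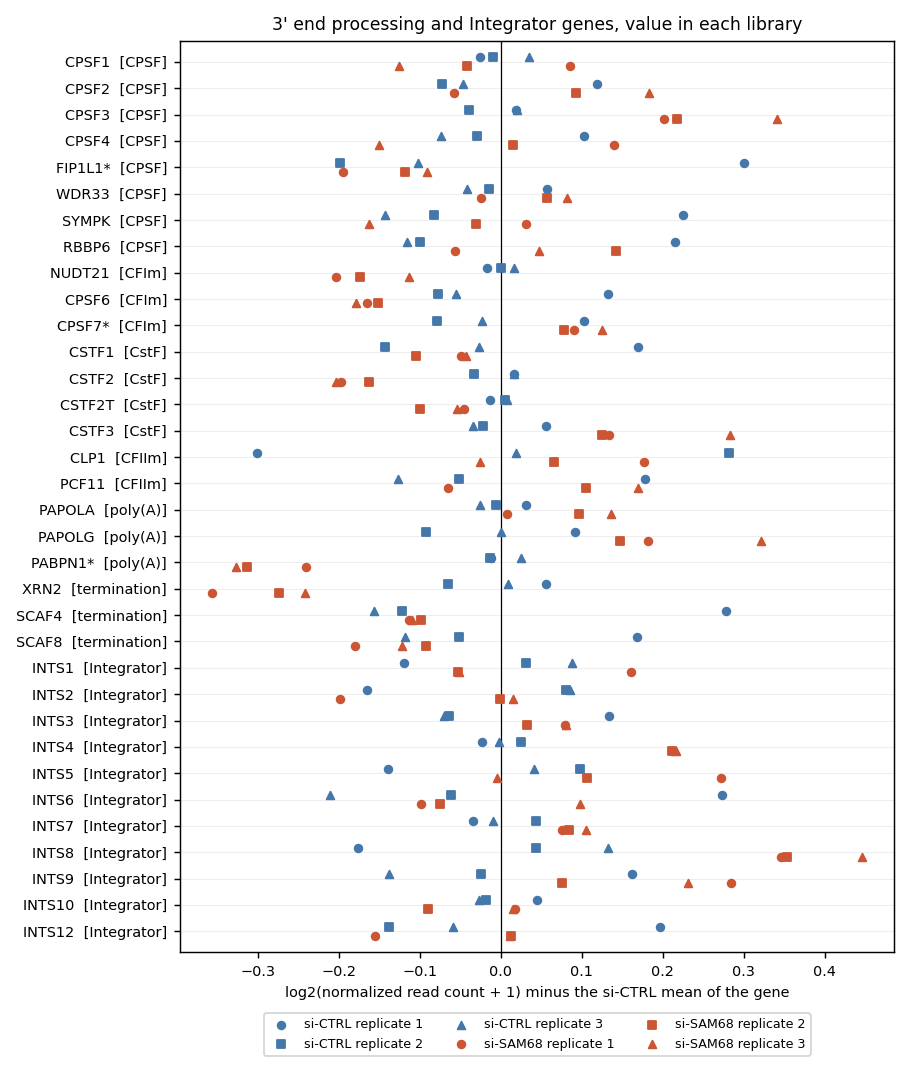
Each row is 1 member and each point 1 library, placed by its log2(normalized read count + 1) minus the si-CTRL mean of that gene (x axis, log2 units); blue marks si-CTRL, orange si-SAM68, the shape the replicate number and an asterisk a locus that holds another protein-coding gene. Most rows mix the colours within 0.3 of the line at 0. All orange points lie to the right of the blue ones in 6 rows (INTS8, CPSF3, INTS4, CSTF3, PAPOLG and INTS7). They lie to the left in 6 rows (XRN2, PABPN1, CSTF2, NUDT21, CPSF6 and CSTF2T).

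Among the 8 members of CPSF and its partners, none passed the test, with log2 fold changes from −0.13 (FIP1L1) to 0.25 (CPSF3) and a median of 0.020. CPSF3, the endonuclease that cuts the pre-mRNA, was at 5173, 4969 and 5179 in si-CTRL and at 5872, 5935 and 6468 in si-SAM68. All si-SAM68 libraries were above all si-CTRL libraries, by 19.2% on average, with a limma adjusted p of 0.0562. The adjusted p passed 0.05 without si-CTRL replicate 1 (limma, 0.0228) and in DESeq2 (0.0224). It did not pass with the replicate block (limma, 0.0725) or in edgeR (0.0596). With 1 library left out, the limma adjusted p of CPSF3 reached 0.2 at most. Its partner CPSF2, a catalytically inactive homologue of CPSF3, differed by 0.07, with overlapping groups. CPSF4 and WDR33, which contact the AAUAAA signal, differed by 0.0016 and 0.04 on the log2 scale. The scaffolds CPSF1 and SYMPK differed by −0.03 and −0.05, and the ubiquitin ligase RBBP6 by 0.04. FIP1L1, which binds U-rich RNA and tethers the polymerase, shares its locus with PDGFRA, a receptor gene, so that its counts (5779, 4089 and 4374, then 4100, 4323 and 4408) cannot be given to FIP1L1 alone. A single library, si-CTRL replicate 1, stood above the other 5 there, and without it the log2 fold change was 0.016 instead of −0.13.

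CFIm, whose subunits favour use of distal polyadenylation sites, did not pass the test either. NUDT21, the subunit that reads UGUA, was at 6737, 6822 and 6898 in si-CTRL and 5921, 6045 and 6302 in si-SAM68, a log2 fold change of −0.16 (SE 0.069, limma adjusted p = 0.161). Its partner CPSF6 was at 9786, 8460 and 8589, then 7958, 8039 and 7886, a difference of −0.17 (limma adjusted p = 0.209). For both genes every si-SAM68 library lay below every si-CTRL library, and without si-CTRL replicate 1 the difference of CPSF6 was −0.10. The alternative partner CPSF7 is counted together with FTH1, the ferritin heavy chain gene, in a locus of 139876 to 161078 normalized reads, and its difference of 0.10 with overlapping groups cannot be read as CPSF7.

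In CstF the 4 genes went in both directions and none passed. CSTF2, the subunit that contacts the downstream element, was at 5324, 5144 and 5325 in si-CTRL and 4590, 4702 and 4572 in si-SAM68. The groups did not overlap, and the difference was −0.19 (SE 0.069, limma adjusted p = 0.113). CSTF3, the scaffold, was higher in every si-SAM68 library, at 4274, 4248 and 4742 against 4051, 3837 and 3805, a difference of 0.18 (SE 0.078, limma adjusted p = 0.17). CSTF2T, a paralog of CSTF2 made from an intronless gene, differed by −0.07, also without overlap, and CSTF1 by −0.07 with overlap.

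Both CFIIm genes, CLP1 (an RNA kinase) and PCF11 (which binds the tail of the polymerase), had overlapping groups and log2 fold changes of 0.07. That of PCF11 ranged from 0.0063 (without si-CTRL replicate 3) to 0.16 (without si-CTRL replicate 1). CLP1 was the member with the lowest count, 475, 712 and 593 in si-CTRL and 662, 613 and 575 in si-SAM68, and had the widest interval, −0.25 to 0.39.

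**Figure D2:**
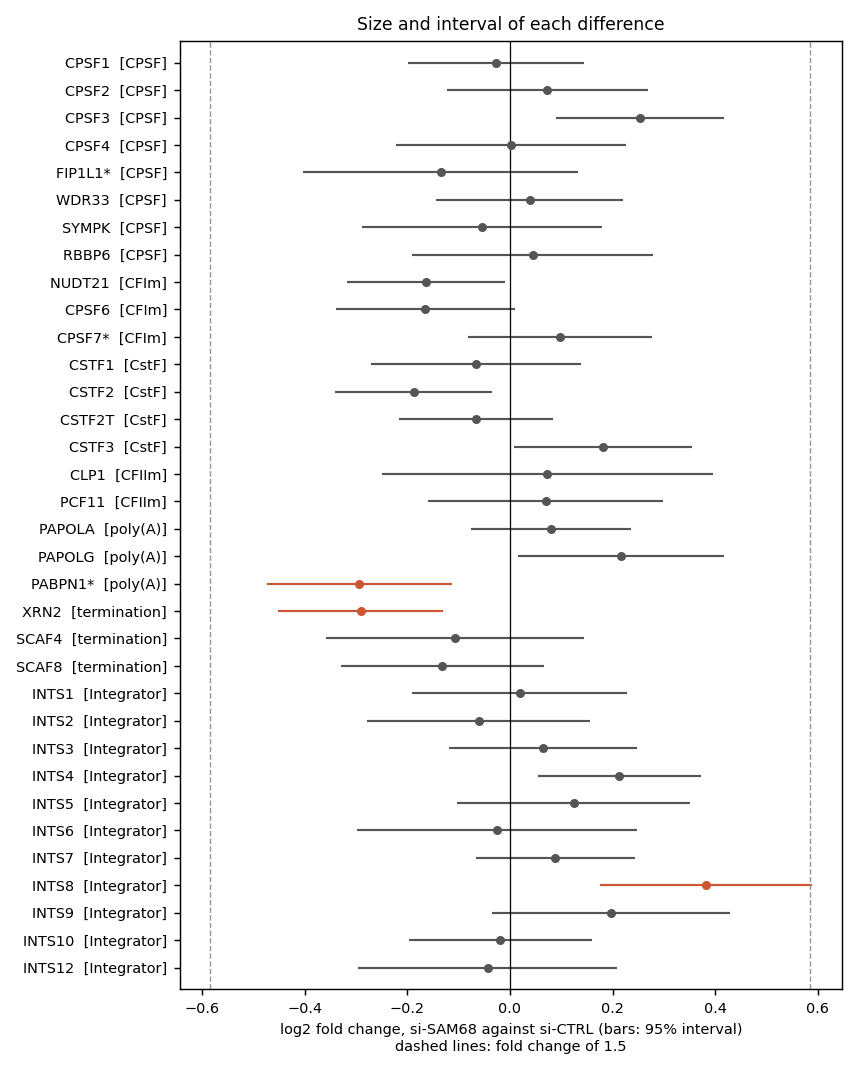
Points are the log2 fold changes of the 34 members (x axis, si-SAM68 against si-CTRL, limma), bars their 95% intervals and dashed lines a fold change of 1.5 in either direction; orange marks an adjusted p under 0.05. Of all the bars, that of INTS8 alone reaches a dashed line, and the orange genes lie at −0.29, −0.29 and 0.38.

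Of the genes that make and bind the poly(A) tail, the locus of PABPN1 fell. PABPN1 coats the growing tail in the nucleus and is known to hold back the use of proximal polyadenylation sites. Its locus (chromosome 14, 23775971 to 23795394 in hg19) was at 1352, 1351 and 1388 in si-CTRL and 1155, 1097 and 1087 in si-SAM68. All si-SAM68 values lay below the si-CTRL values, and the locus fell by 18.4% (log2 fold change −0.29, SE 0.081, limma adjusted p = 0.0456). The locus also holds BCL2L2, an anti-apoptotic gene, and the read-through gene BCL2L2-PABPN1, so the reads of PABPN1 cannot be told from theirs. With the replicate number as a block the adjusted p was 0.0725 (limma), so the call was lost. It was also lost without si-CTRL replicate 2 (0.0982) or 3 (0.129), or without si-SAM68 replicate 1 (0.0813), 2 (0.174) or 3 (0.153), and kept without si-CTRL replicate 1 (0.025).

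The poly(A) polymerases did not pass the test. PAPOLG was at 1491, 1312 and 1399 in si-CTRL and 1588, 1549 and 1748 in si-SAM68, with no overlap, and differed by 0.22 (limma adjusted p = 0.155). PAPOLA, the main enzyme, was at 18996 to 19752 in si-CTRL and 19444 to 21242 in si-SAM68, and differed by 0.08 with overlap.

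XRN2, the nuclear 5′ to 3′ exonuclease that chases the polymerase after cleavage, fell. Its values were 18916, 17396 and 18322 in si-CTRL and 14219, 15054 and 15390 in si-SAM68 (chromosome 20, 21283922 to 21370463 in hg19). The lowest si-CTRL library was above the highest si-SAM68 library, and the gene fell by 18.2% (log2 fold change −0.29, SE 0.072, 95% interval −0.45 to −0.13, limma adjusted p = 0.0323). With the replicate block the adjusted p was 0.056 (limma), past the threshold no longer. The call was also lost without si-CTRL replicate 2 (0.0514) or 3 (0.093), or without si-SAM68 replicate 1 (0.105), 2 (0.114) or 3 (0.0874), and kept without si-CTRL replicate 1 (0.0167), the log2 fold change ranging from −0.32 to −0.26. SCAF4 and SCAF8, which prevent early termination, differed by −0.11 and −0.13 with overlapping groups. For SCAF4 si-CTRL replicate 1 (4336) was above the other 5 libraries (3208 to 3341), and without it the difference was 0.03. For SCAF8 the difference without that library was −0.05.

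**Figure D3:**
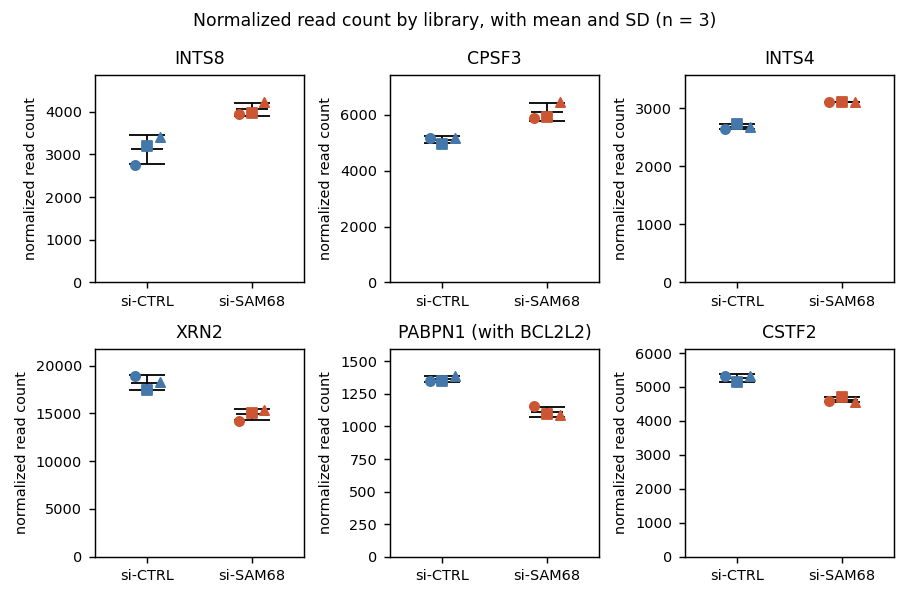
Normalized read count (y axis, from 0) in each library for 6 of the members without overlap between the groups, those with the smallest p-values; symbols are libraries, and the lines the mean and SD of 3. INTS8, CPSF3 and INTS4 are higher in si-SAM68, XRN2, the PABPN1 locus and CSTF2 lower, and the groups lie apart in every panel although the gaps are small against the height from 0.

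Integrator held the member that rose. INTS8, a subunit that helps to bring protein phosphatase 2A to the complex, was at 2748, 3201 and 3406 in si-CTRL and 3949, 3970 and 4231 in si-SAM68 (chromosome 8, 95835518 to 95892720 in hg19). Every si-SAM68 library was above every si-CTRL library, and si-CTRL replicate 1 was the lowest of all. The rise was 30.3% (log2 fold change 0.38, SE 0.093, 95% interval 0.18 to 0.59, limma adjusted p = 0.0297), and with the replicate block the adjusted p was 0.0322 (limma). The call was lost without si-CTRL replicate 2 (0.0526) or si-SAM68 replicate 1 (0.0786), 2 (0.0945) or 3 (0.128), and kept without si-CTRL replicate 1 (0.0143) or 3 (0.0352), with log2 fold changes of 0.29 to 0.45.

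The other 10 Integrator members did not pass the test. INTS4, a scaffold bound to the endonuclease module, was at 2638, 2729 and 2677 in si-CTRL and 3105, 3104 and 3115 in si-SAM68. The libraries of each group were close together, and the difference was 0.21 (SE 0.071, limma adjusted p = 0.0863). INTS9, the inactive partner of the endonuclease, differed by 0.20 with overlapping groups (limma adjusted p = 0.256), and INTS7 by 0.09 with every si-SAM68 library the higher. The phosphatase-module subunit INTS6 differed by −0.03 with a wide spread among the controls (2860, 2267 and 2045). The other 6 (INTS1, INTS2, INTS3, INTS5, INTS10 and INTS12) lay between −0.06 (INTS2) and 0.12 (INTS5), with overlap. Of the 11 Integrator members 7 were above 0, and their median was 0.06.

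Ratios between paralogs within a library do not depend on its scaling. The log2 ratio of CSTF2 to CSTF2T was −0.52, −0.59 and −0.54 in si-CTRL and −0.70, −0.61 and −0.70 in si-SAM68. The groups did not overlap and the mean moved by −0.12 (exact permutation test, two-sided, p = 0.1, the smallest that 3 against 3 libraries allow, 0.3 after adjustment over the 3 pairs). That of PAPOLA to PAPOLG went from 3.79 ± 0.077 to 3.65 ± 0.075 (SD, n = 3; exact permutation p = 0.2, adjusted 0.3). Between libraries of the same replicate number this ratio was lower in si-SAM68 in all 3 pairs, with differences of −0.11, −0.14 and −0.16 (exact sign-flip permutation test, chosen after the values were seen, p = 0.25, the smallest that 3 pairs allow), and that of CSTF2 to CSTF2T moved by −0.18, −0.02 and −0.16 (exact p = 0.25). That of SCAF4 to SCAF8 differed by 0.025 (exact permutation p = 0.7), with pairs in both directions.

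To compare levels between members, normalized read counts were divided by the length of the longest protein-coding transcript of each gene in GENCODE (per kb), for the 31 members whose locus holds no other protein-coding gene. In si-CTRL the order was led by XRN2 at 5299 ± 223 per kb, PAPOLA at 4279 ± 84.9, CPSF1 at 3419 ± 75.1 and CSTF2 at 2538 ± 50.3 (SD, n = 3), and these neighbours lay farther apart than their SDs. CSTF2 was thus above its paralog CSTF2T (1878 ± 14.5 per kb), although CSTF2T had the larger read count. The Integrator genes stood lower, from INTS7 at 998 ± 27.4 to INTS6 at 155 ± 27.3 per kb. Members of other complexes lay in the same range, such as SYMPK (957 ± 135) and CLP1 (244 ± 48.7), and WDR33 had the lowest mean (144 ± 5.12). Neighbours in the lower part of the order, such as INTS3 and INTS8 or INTS1 and PAPOLG, differed by less than their SDs. A very long annotated transcript lowers the value, as in INTS6 (15428 bases) and CPSF2 (13035 bases).

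**Figure D4:**
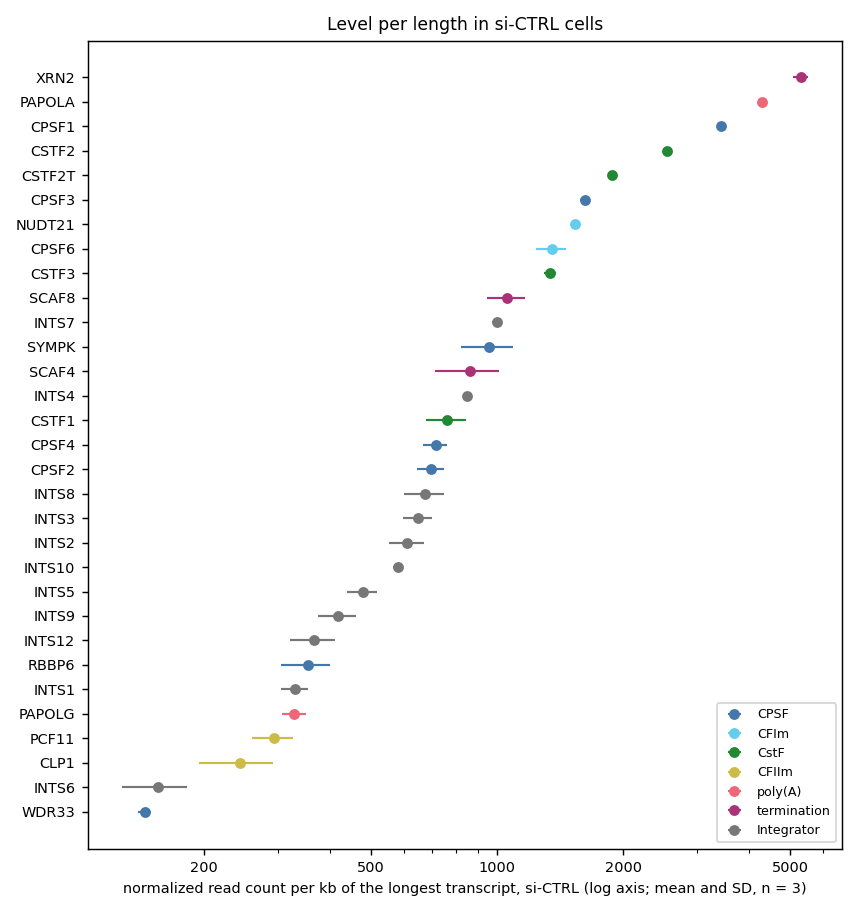
Mean normalized read count per kb of the longest transcript in si-CTRL (x axis, log scale), with SD over 3 libraries, for 31 members, coloured by complex. XRN2, PAPOLA and CPSF1 lie at the upper end, and the Integrator genes between 155 and 998 per kb, a range that also holds members of other complexes.

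Matches to the seeds were counted in the longest annotated 3′UTR of each gene. At least 1 match of 7 bases to a siRNA of the SAM68 pool was held by 12 of the 34 members (35.3%), beside 29.7% of 11936 other genes tested, and 20 members (58.8%) held a match to the control pool, beside 56.0%. The members with a SAM68-pool match had a median log2 fold change of −0.012 and the 22 without one 0.031, with 6 of 12 and 10 of 22 below 0. Of the called genes, XRN2 holds 1 match to siSAM68_2 and no match to the control pool. The siSAM68_2 match, on the plus strand of chromosome 20 at 21389648 to 21389672 in GRCh38, is printed in capitals with its surroundings.
XRN2 3′UTR: atctaagatccaTGCTGATttttat
INTS8, which rose, holds 1 match as well, to siSAM68_3, and 2 matches to the control pool. PABPN1, whose locus fell, holds no match to the SAM68 pool and 5 to the control pool. A match is a description of letters, and the part of seed pairing in these values was not tested.

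Other genes of the pathway were also mostly short of the threshold. Their list held regulators, histone mRNA processing factors, termination factors, and further genes of Integrator or associated with it. Of the 12 genes of Integrator or associated with it in that list, 6 were above 0 and 6 below. Of the 85 tested, 1 rose and 4 fell at an adjusted p under 0.05, with a median log2 fold change of 0.0097. That was 5.88%, beside 10.7% of all loci and 13.1% of the loci read at least as strongly as the lowest member. The median of their means was 4436, beside 610 for all loci. The largest difference was in CPEB1, which binds 3′UTR elements and can recruit CPSF to proximal sites. It was read at 217, 231 and 248 in si-CTRL and 138, 139 and 102 in si-SAM68, and fell by 46.0% (log2 fold change −0.89, limma adjusted p = 0.00874, and 0.0243 with the replicate block). LSM10, a subunit of the U7 particle that cuts histone mRNAs, fell by 0.33 on the log2 scale (limma adjusted p = 0.0275, with the block 0.0458). INTS6L, a paralog of INTS6, fell by 0.39 (limma adjusted p = 0.0354), and CDK9, the kinase that releases paused polymerase, by 0.31 (limma adjusted p = 0.0427). NPAT, the activator of histone gene transcription, rose by 0.31 (limma adjusted p = 0.0401). These last 3 calls were lost with the block (limma adjusted p of 0.0508, 0.0523 and 0.0665), leaving 2 of 5. Leaving out 1 library moved the count of 5 to 8 without si-CTRL replicate 1, to 2 without si-CTRL replicate 2 or si-SAM68 replicate 1, and to 1 without si-CTRL replicate 3 or si-SAM68 replicate 2 or 3.

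The supply of 3′ end processing factors can influence terminal exon choice. The members were therefore set beside the loci for which the study listed an alternative terminal exon on these same libraries. The study counts these events as splicing changes upon Sam68 depletion, and the part of the members in them was not tested. None of the 34 members is among those 92 loci, and KHDRBS1, which is, was left out here. The joint loci of CPSF7 and PABPN1 do appear in the wider list of splicing events, with no event type given. Because the list was chosen on these samples, its counts are not independent evidence. At the level of the whole locus 6 of the 91 others rose and 16 fell. That was 24.2%, beside 10.7% of all loci and 13.1% of the loci read at least as strongly as the lowest member. The median size of the log2 fold change without sign was 0.161, beside 0.193 over all loci, many of which are read at lower levels (median of means 610, beside 3070 here). AGO3, an Argonaute gene, fell from 844, 878 and 748 to 356, 444 and 410 (log2 fold change −1.03, limma adjusted p = 0.00101). SAP30L, HPSE (heparanase), NEGR1 and CHCHD3 fell by 0.89, 0.72, 0.69 and 0.62 on the log2 scale.

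Among those that rose, ALCAM, a cell adhesion gene, went from 11217, 9770 and 9776 to 14733, 14907 and 14845 (log2 fold change 0.54, limma adjusted p = 0.00332). The joint locus of RWDD3 and TMEM56, NIPAL3, PRSS23 and the joint locus of CDKN2B-AS1 and MTAP rose by 0.62, 0.46, 0.41 and 0.38. These are counts over all exons of a locus and do not show which terminal exon was used. Without si-CTRL replicate 1, 2 or 3 the count of 22 calls was 30, 12 and 11, and without si-SAM68 replicate 1, 2 or 3 it was 10, 9 and 6.

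**Figure D5:**
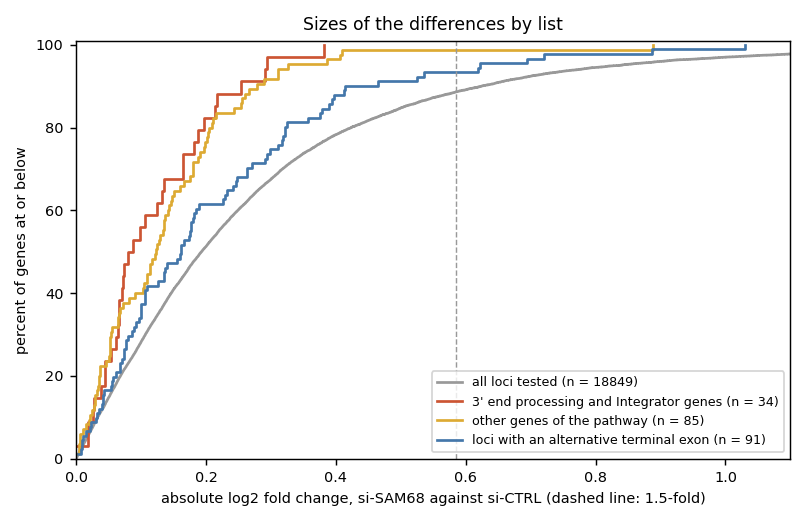
Cumulative percent of genes (y axis) by the size of the log2 fold change without sign (x axis, drawn up to 1.1, which leaves out some of all loci tested) for the 34 members, 85 other pathway genes, 91 loci with an alternative terminal exon and all 18849 loci tested; the dashed line marks 1.5-fold. The curve of the members reaches its top at 0.38, left of the dashed line, while CPEB1 and several of the terminal exon loci lie to its right.

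The library si-CTRL replicate 1 stood apart for many of the members. It had the highest value of all 6 libraries for 13 of the 34 (38.2%, beside 27.5% of all loci tested). It had the lowest for 6 (17.65%, beside 28.34%), a share under that of all loci. Among the si-CTRL libraries it was the one farthest from the others for 26 members (76.5%, beside 54.9%). Without it the members' median log2 fold change was 0.055, against 0.010 with all libraries, and 4 members passed the test in place of 3, the fourth being CPSF3. It was also the library with the fewest reads. What sets it apart was not tested.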

How the data were processed

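Polyadenylated RNA of 3 si-CTRL and 3 si-SAM68 libraries was measured, grouped by the sample labels. The authors deposited 1 table of signal values, the read count per FAST DB locus (hg19) divided by the DESeq2 size factor of each library. The submitters' processing notes name STAR 2.4.0, SAMtools, Picard and FastQC. The counting program and the use of strand are not given in the sources used here, so overlapping antisense genes and paralogs can share reads. Every value was a whole multiple of the library's step to within 0.01, and these multiples were taken as reads.

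Loci with a mean of at least 10 were tested in limma 3.58.1 (R 4.3.3; lmFit, then eBayes with trend = TRUE) after adding 1 to each value and taking log2, so that folds of low genes are understated, with Benjamini-Hochberg adjustment over 18849 loci. edgeR 4.0.16 and DESeq2 1.42.0 on the recovered reads, other pseudocounts, filters, scalings, a replicate block and each library left out were alternatives. The method was tested on simulated data, drawn independently for each library and so without paired or deviating libraries. Same-numbered libraries of the 2 groups deviated together (correlations 0.105, 0.231 and 0.125, against −0.125 to 0.00687 for other pairs). In the replicate block and the sign-flip tests the numbers were therefore taken to pair the libraries, on these correlations and not on a label. The correlations come from the same libraries that were then tested, so they are no independent evidence of pairing. The main fit did not use this pairing. Members named are those called, the 10 with the smallest p-values, the paralog pairs, joint loci and the extremes of each complex, with the others added after their values were seen. The members and lists were chosen with earlier results of these data known. Transcript lengths and 3′UTRs are from GENCODE 29.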

Additional observations from a re-analysis of the deposited data

How the results depend on the processing

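Member calls numbered 3 with all libraries, and from 0 to 4 with 1 library left out (higher, 0 to 2; lower, 0 to 2). They were 1 without the filter on low values (1 higher, 0 lower), 0 without the trend (0 and 0) and 1 with the replicate block (1 and 0). Higher calls were 2 instead of 1 with a mean of at least 50, with quantile normalization and in DESeq2, CPSF3 being added. The other pathway genes numbered 5, and 2 without the filter, 1 without the trend, 2 with the block, 8 in DESeq2 and 1 to 8 with 1 library left out. The terminal exon loci numbered 22, and 14 without the filter, 8 without the trend, 15 with the replicate block, 26 in DESeq2 and 6 to 30 with 1 library left out. The members' median ranged from −0.012 to 0.055 over the left-out libraries. KHDRBS1 ranged from −4.66 to −4.55 and no member passed 1.5-fold under any alternative run. Pseudocounts, TMM, the robust trend and edgeR changed no member's call, and the block changed no member's call other than those of XRN2 and PABPN1. The ratio of SCAF4 to SCAF8 turned to −0.010 without si-CTRL replicate 2. Signs of single members turned only when a library was left out, in genes that were not called, whose log2 fold changes ranged from −0.0836 to 0.0218 (CPSF1), −0.0674 to 0.0773 (CPSF4), −0.234 to 0.0155 (FIP1L1), −0.125 to 0.0587 (SYMPK), −0.0137 to 0.151 (RBBP6), −0.137 to 0.0191 (CSTF1), −0.078 to 0.213 (CLP1), −0.185 to 0.0324 (SCAF4), −0.0525 to 0.0626 (INTS1), −0.144 to 0.00767 (INTS2), −0.131 to 0.111 (INTS6), −0.037 to 0.0167 (INTS10) and −0.113 to 0.0548 (INTS12). A further 10 uncalled members kept their sign but moved by over 1.5 times with 1 library left out, and no called member did so. The cause of these moves was not tested. The 95% interval had a median half-width of 0.20 (log2, not adjusted for the number of loci). Differences smaller than that were mostly not detectable with 3 libraries a group. Larger ones could also go uncalled after adjustment, as in CPSF3 (0.25), PAPOLG (0.22) and INTS4 (0.21).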
